A study of Mus musculus with 16 samples.

Results

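The regions described here were bound by both total Jarid2 and Jarid2 dimethylated at the lysine K116 (Jarid2-K116me2) in mouse embryonic stem cells (ESCs) and lay next to, rather than on, a transcription start. They were chosen from the deposited ChIP-seq peak lists of the 2 antibodies in E14 ESCs: peaks sharing 1 bp or more were joined, joined regions with peaks of both lists were called common, and those whose midpoint was more than 1 kb and at most 10 kb from the nearest annotated start were kept. Of 5001 merged regions, 3896 were common, and 779 of these (20.0%) met the distance bounds. A further 2670 common regions had their midpoint within 1 kb of a start (start-site regions), and 447 lay more than 10 kb away (far regions). Of the 779, 288 had their midpoint upstream of the nearest start and 491 downstream. Regions could still reach over a start when they were wide: 345 spanned at least 1 annotated start, and 434 spanned none.

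Jarid2 is a DNA-binding partner of Polycomb repressive complex 2 (PRC2), the enzyme complex that trimethylates lysine 27 of histone H3. In ESCs this mark, H3K27me3, covers the CpG-rich promoters of genes for developmental transcription factors and signalling molecules and is associated with their silencing. The lysine K116 of Jarid2 is itself a substrate of PRC2. CpG islands are stretches in which the CpG dinucleotide has not been depleted, and they are the usual sites of PRC2 binding in mammalian cells.

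The study set out to learn where methylated Jarid2 sits and what the methylation does to H3K27me3 during differentiation. Jarid2 and Jarid2-K116me2 were each profiled in 1 sample of E14 ESCs, so values from these lists carry no replicate error. H3K27me3 was profiled in 12 other libraries, 2 biological replicates for each of 3 lines at 2 stages. All 3 lines were Jarid2 -/- ESCs: the knockout itself (KO), the knockout carrying a bacterial artificial chromosome (BAC) that expresses wild-type Jarid2 (WT), and the knockout carrying the same BAC with that lysine changed to alanine (K116A), which cannot be methylated there. The BACs were integrated with a transposon, and the sources used here do not say whether each line was a single clone. ESCs were grown in serum with LIF on gelatin, and embryoid bodies (EBs) were started in hanging drops, moved to low adherence plates and kept without LIF for 8 days in all. The lines of the H3K27me3 libraries were therefore not the E14 cells in which the regions were found.

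The H3K27me3 lists held between 1478 and 14125 peaks. The first WT ESC replicate stood apart with 1478 peaks, against 8579 in the second, and it had the lowest share of marked regions in each group of regions compared below. In all 6 groups replicate 2 had more peaks than replicate 1. The lists give peaks and a score but no read counts, so no depth could be computed from them. By the read table in the study's supplement, WT ESC replicate 1 was not sequenced less than the other ESC libraries. At the starts of Nanog, Zfp42, Tcl1 and Dppa3, genes active in ESCs, no library of either stage had an H3K27me3 peak, and Pou5f1 had 1 in 1 EB library. Neurog2, a proneural gene, was covered in all 12 libraries, and Klf4, an ESC factor, in 0 of 6 ESC and 6 of 6 EB libraries. Esrrb, another ESC factor, was covered in 5 of 6 ESC and 6 of 6 EB libraries, and Olig1, a gene of the oligodendrocyte lineage, in none. A list of H3K27me3 peaks does not measure expression and cannot show the Jarid2 deletion.

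All coordinates are of the mouse build NCBIM37 (mm9), and regions are named by the gene of the nearest start. The sequences below show the DNA at these regions: in each, the 30 bases richest in CpG were taken from the plus strand of the reference, with every CG in capitals. The first set comes from the regions that scored highest with both antibodies without holding a start. They are chr17:26986909-26986938 upstream of Nkx2-5 (a cardiac homeobox factor) and chr15:98927507-98927536 at Dnajc22. The others are chr3:93248273-93248302 in the coding sequence of Tchh (trichohyalin, a hair follicle protein) and chr17:48234640-48234669 downstream of the 1700067P10Rik start. The midpoint of the Dnajc22 region lay in an intron and within Dnajc22, upstream of its nearest start. Regions without a start can still end close to one. The Dnajc22 region ended at 98929726, with that start at 98929843. The Tchh region began at 93246308, with its start at 93246252.
Nkx2-5: CGCGgaCGagcCGggtctcCGagtgtgcCG
Dnajc22: CGctccCGCGgggccCGggcttCGgCGgCG
Tchh: aCGagctgaCGCGgatcCGggaaccCGaCG
1700067P10Rik: gCGcCGcagagggCGggCGCGtctcCGgCG

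The second set comes from 2 of the widest regions that span a start, at chr11:96191036-96191065 (Hoxb4, an anterior-posterior patterning factor) and chr1:78186245-78186274 (Pax3, a neural crest and muscle factor).
Hoxb4: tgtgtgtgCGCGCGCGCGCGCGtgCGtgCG
Pax3: CGgCGccCGCGggccCGctctgcCGCGcCG

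The third set comes from regions whose H3K27me3 differed between stages or lines, described further on. They are chr11:103634885-103634914 at Wnt3, chr11:68213457-68213486 at Ntn1, chr14:49293470-49293499 at Otx2 and chr14:63859870-63859899 at Gata4. The last sequence, at chr7:31474734-31474763, is from the region of 2200002J24Rik, which had no H3K27me3 peak in any library. Its stretch, chosen like the others as the richest in CpG, holds 8 CGs.
Wnt3: gcctcagCGgactctccCGCGCGcccctCG
Ntn1: cCGaggggCGggCGCGgCGggactcCGgCG
Otx2: CGagCGtggCGcaaaattccCGccCGCGCG
Gata4: aCGtagaCGggCGaggaCGCGgCGccCGCG
2200002J24Rik: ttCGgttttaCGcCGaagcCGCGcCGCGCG

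The distances, widths and scores that follow were used by, or come from the same lists as, the rule that chose the regions, and they are given as a description. The median distance from midpoint to start was 2103 bp, with quartiles of 1344 and 4242 bp. The numbers fell with distance, from 378 regions at 1 to 2 kb to 151 at 5 to 10 kb. At the lower bound the closest regions inside were at Man1c1 (1001 bp) and Inhbb (1010 bp), and the closest outside at Lrba (998 bp) and Fzd10 (999 bp). At the upper bound they were at Msx2 (9886 bp) and 2200002J24Rik (9936 bp) inside, and at Pou3f3 (10043 bp) and a second region of Cbx8 (10051 bp) outside. Regions on either side of a bound differed in distance by far less than their own width.

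**Figure D1:**
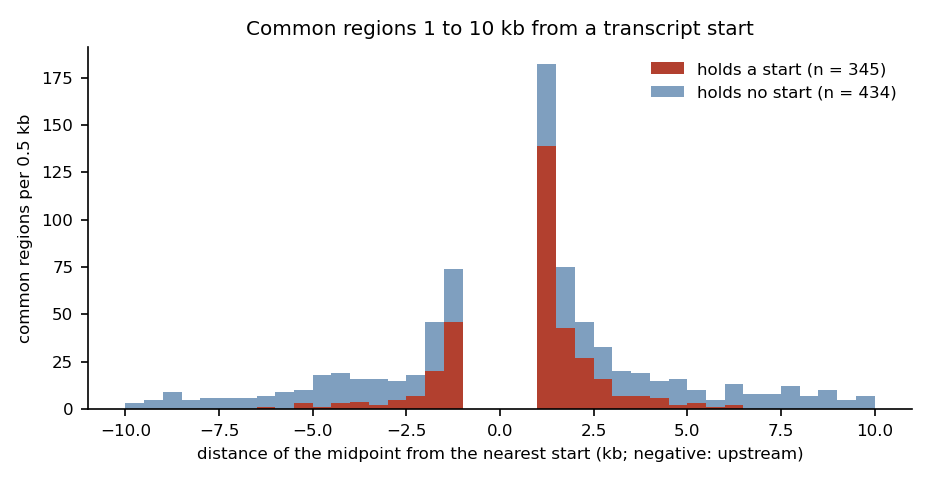
Number of common regions per 0.5 kb of distance between midpoint and nearest annotated start (kb, upstream negative), in stacked bars for regions that hold a start and regions that hold none. At 1 to 2 kb, 66 of 120 upstream and 182 of 258 downstream regions spanned a start, and at 5 to 10 kb 4 of 66 and 6 of 85 did.

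Regions that spanned a start were wide and strong, and those that did not were narrow and weak. A region with its midpoint over 1 kb from a start must be at least 2 kb wide to reach it, so part of this difference is set by the rule. Median width was 5969 bp for the 345 spanning regions and 1946 bp for the 434 others. The score of the Jarid2 lists is -10 times log10 of the peak caller's p, and most of the strongest peaks carry the same value of 3100. The median Jarid2 and Jarid2-K116me2 scores were both 3100 for spanning regions, and 516 and 406 for the rest. Both scores reached 3100 or more in 62.9% of the spanning regions (95% Wilson interval over regions 57.7 to 67.8), in 3.69% of the others and in 16.8% of start-site regions. The H3K27me3 comparisons below are therefore also given within classes of score.

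The widest regions were the Hox clusters, which pattern the body axis. The region named for Hoxc9 ran over 91396 bp (chr15:102760036-102851431) and held 1 Jarid2 peak and 14 Jarid2-K116me2 peaks. At Hoxb4 the region ran over 89797 bp with 1 and 11 peaks, and at Hoxa7 over 63562 bp with 1 and 7. Pax3 followed with 33379 bp. In all, 18.7% of the 779 held more than 1 Jarid2-K116me2 peak, against 6.82% of start-site regions, and 1.03% held more than 1 Jarid2 peak. Where a region was cut up, it was mostly in the list for the methylated form.

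Upstream and downstream regions differed in these descriptions as well. Upstream midpoints made up 37.0% of the 779 and 26.6% of start-site regions. Downstream regions spanned a start in 51.5% of cases and upstream regions in 31.9%. Median scores for Jarid2 and Jarid2-K116me2 were 1567 and 1622 downstream, and 833 and 685 upstream. Where both scores were under 3100, the Jarid2-K116me2 score was the higher in 43.8% of downstream and 35.0% of upstream regions, against 57.5% of start-site regions and 45.5% of far regions. Because the 2 lists come from 1 sample each, these shares describe those samples.

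Most of the midpoints fell inside genes. Of the 779, 40.3% were in an intron, 22.2% in a coding exon, 5.91% in a UTR and 29.1% between genes, and the nearest start belonged to a protein-coding gene for 84.2%. Downstream midpoints were in a coding exon in 29.3% of cases and upstream ones in 10.1%. Of the 288 upstream midpoints, 25.3% were inside another gene.

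For the 434 regions that did not span a start, the nearest start often lay in no region of either list. Of these starts, 155 (35.7% of the 434) lay in a different common region, 11 in a region of the Jarid2 list alone, 1 in a region of the Jarid2-K116me2 list alone, and 267 (61.5%) in no region of either list. Where the start lay in a common region, the gap to the next common region had a median of 265 bp, and the median scores were 671 and 457. Where the start was in no region, the gap was 64807 bp and the scores were 412 and 365. Another common region lay within 5 kb of 148 of the 155 and of 46 of the 267. Of the sequences shown, the Nkx2-5 region was of the first kind and the Dnajc22, Tchh and 1700067P10Rik regions of the second. The Dnajc22 region was still only 212 bp from the next common region. Its edge and that of the Tchh region lay just short of their starts, as given above.

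The 779 regions had 701 nearest genes, and 60 of these genes had more than 1 region. The protocadherin gamma gene Pcdhgc5 had 8 and the protocadherin alpha gene Pcdha11 had 6, both in clusters that encode neuronal cell adhesion proteins. Bcor, a subunit of a variant Polycomb repressive complex 1, had 5. Neurod2, Hoxc4, Fgf8 and Tbx3 had 3 each.

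Of the gene lists, homeobox factors had the largest share of genes with a region. The lists of genes were fixed with earlier results on these data known, and their counts are a description. Of 162 annotated homeobox genes, 77 (47.5%) were the nearest gene of at least 1 of the 779 regions, against 585 of 22238 protein-coding genes (2.63%). Homeobox genes accounted for 92 regions, 11.8% of the 779 and 2.1% of start-site regions. Sox, Fox, Gata and T-box factors had regions at 25 of 84 genes, with Foxa1 (an endoderm factor) and Tbx2 at the top of the scores. The basic helix-loop-helix and zinc finger factors had them at 19 of 85 genes, with the proneural genes Neurog1 and Neurog2 first.

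Genes that act at the cell surface or outside the cell followed. Signalling ligands and antagonists had regions at 26 of 131 genes, among them Dll1 (a Notch ligand) and Wnt7b. Receptors had them at 8 of 78, with Nrp2 and Ephb1 first, and ion channels and transmitter receptors at 19 of 222, with the potassium channel genes Kcnk10 and Kcna1 first. In most lists start-site regions were at more genes, among them 39 of the 78 receptors, 104 of the 222 channels and 63 of the 131 ligands. The same held for Sox, Fox, Gata and T-box factors (30 of 84) and for helix-loop-helix and zinc finger factors (32 of 85). Homeobox genes (52 of 162) and pluripotency genes (1 of 16) went the other way, and CDK inhibitors had equal numbers. Among CDK inhibitors, which halt the cell cycle, 3 of 7 had a region, including Cdkn1c and Cdkn2b. Of 16 pluripotency genes, Prdm14 and Tbx3 had at least 1. Cbx8, a Polycomb subunit that reads H3K27me3, had one as well. Pou5f1, Nanog and Jarid2 were not among the neighbours.

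The DNA of these regions was less CpG-rich than that of start-site regions, and the spanning ones least of all. In the 1 kb around the midpoint, the ratio of observed to expected CpG had a median of 0.59 for the 779, 0.72 for start-site regions and 0.66 for far regions. Regions spanning a start had a median of 0.54 and the others 0.61. A stretch of at least 200 bp meeting the usual CpG island criteria (GC of at least 50%, ratio of at least 0.6) was found in that window in 83.6% of the 779, in 91.5% of those not spanning, in 73.6% of those spanning and in 98.8% of start-site regions. Upstream spanning regions were lowest, at 63.0%. In a spanning region the midpoint is by definition over 1 kb from its start, so this window leaves out the promoter. Regions with the nearest start in no region held an island in 95.9% of cases.

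Short motifs were counted in the same windows on both strands. The GC-rich CCGCCGCC was present in 21.1% of the 779 windows, 41.8% of start-site windows and 36.2% of all common regions. GAGAGAGA was present in 15.4% (13.1% of all common regions), TGTGTGTG in 20.0% (15.2%) and CACGTG in 18.4% (16.6%). In upstream spanning regions TGTGTGTG reached 27.2% and GAGAGAGA 25%. The CG-rich stretch shown for Hoxb4 begins with such a TG repeat. These are letter matches and not binding sites.

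H3K27me3 was not used in choosing the regions, and it was more frequent on the 779 as a whole than on start-site regions. The 434 that spanned no start differed from start-site regions by -1.80 points on average, as given below. A region was counted as marked when its midpoint lay in an H3K27me3 peak, so that an overlap at its edge alone did not count. This makes no adjustment for the width of a region. In ESCs the 779 regions were marked in 45.2 and 79.7% of cases in the KO replicates, 13.9 and 69.8% in WT and 48.1 and 73.6% in K116A. In EBs the values were 57.6 and 62.8% in KO, 60.8 and 59.3% in WT and 61.5 and 68.9% in K116A. ESC replicates thus differed far more than EB replicates. Start-site regions had a median of 43.4% in ESC libraries and 50.4% in EB libraries, against 59.0% and 61.2% for the 779. The difference within a library averaged 11.6 percentage points and was positive in 12 of 12 libraries (exact two-sided sign-flip permutation test over libraries, p = 0.00049, the smallest possible, 0.00114 after Benjamini-Hochberg adjustment over 7 tests). Against far regions it averaged 18.1 ± 4.2 points (SD, n = 12; positive in 12 of 12; exact p = 0.00049, 0.00245 adjusted over 5 tests added after the data were seen). All libraries are scored on the same regions, so these p-values cover the spread between libraries only. They also count the 2 replicates of a line and stage as separate units. On 6 means over replicates the exact sign-flip test gave p = 0.03125 for the difference from start-site regions.

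**Figure D2:**
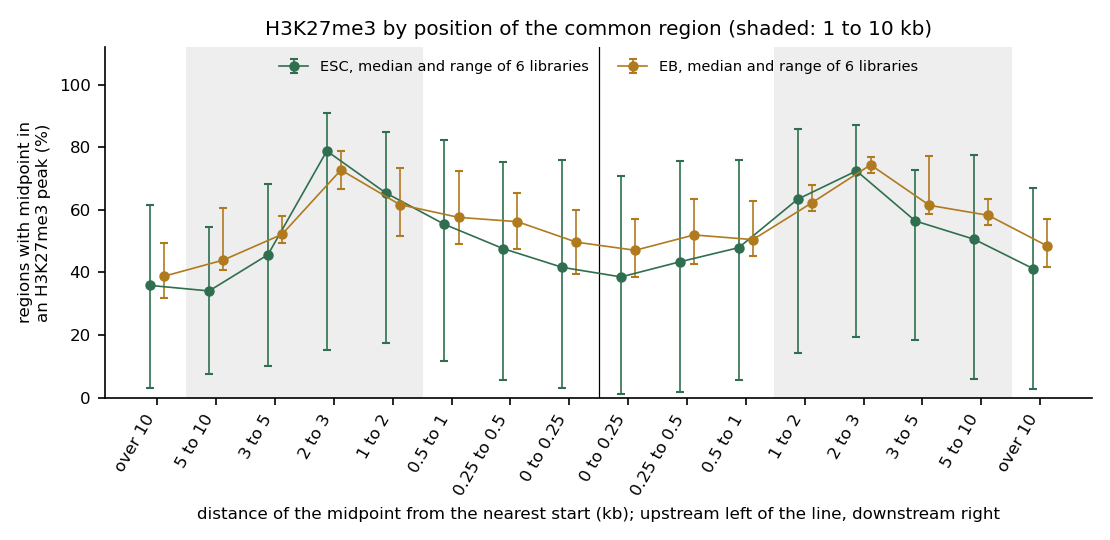
Share of common regions with the midpoint in an H3K27me3 peak (%), by distance of the midpoint from the nearest start (kb), upstream to the left and downstream to the right. Points are medians and bars the range of 6 libraries per stage. The share was highest at 2 to 3 kb on both sides.

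The share was highest 2 to 3 kb from a start. There, the ESC median was 78.8% upstream and 72.4% downstream, and the EB median 72.7% and 74.4%. Within 0.25 kb of a start it was 41.6% and 38.6% in ESCs and 49.7% and 47.1% in EBs. At 5 to 10 kb it fell to 34.1% upstream and 50.6% downstream in ESCs, and to 43.9% and 58.2% in EBs. The upstream bin at 2 to 3 kb held 33 regions, and ranges over the 6 ESC libraries were wide in every bin. Of the bins from 1 to 10 kb, those at 2 to 3 kb also had the highest median Jarid2 scores (1285 upstream and 2829 downstream). The profile by distance was not repeated within classes of score. When overlap of any 1 bp was counted in place of the midpoint, the difference between the 779 and start-site regions was 5.01 points, positive in 11 of 12 libraries (exact p = 0.00098). With at least 50% of the region covered it was 8.69 points.

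Of the 3 comparisons by position, spanning a start gave the largest difference. Spanning regions were marked with a median of 79.4% in ESCs (25.8 to 93.0) and 77.5% in EBs (73.3 to 84.1). Regions not spanning had 42.7% (4.38 to 69.1) and 47.2% (45.2 to 56.9). The difference averaged 30.2 points, positive in 12 of 12 libraries (exact permutation test, p = 0.00049, adjusted 0.00114). Peaks in all 12 libraries overlapped 174 spanning regions (50.4%) and 40 of the others (9.22%), and no library had a peak on 5 and 62 of them. Compared with start-site regions, those not spanning differed by -1.80 ± 3.15 points (SD, n = 12; positive in 4 of 12; exact p = 0.0752).

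**Figure D3:**
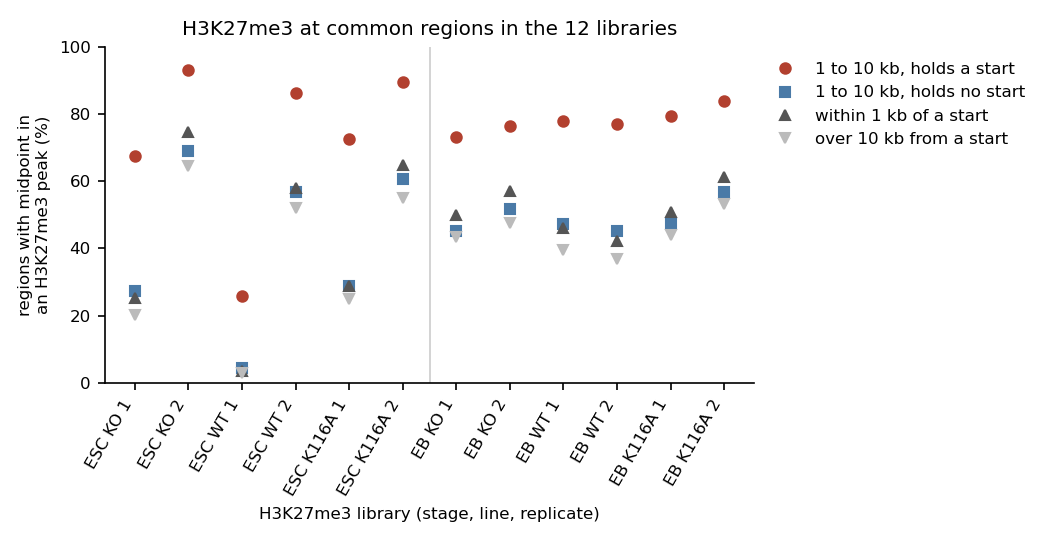
Share of regions marked by H3K27me3 (%) in each of the 12 libraries, for regions 1 to 10 kb from a start that hold a start or hold none, regions within 1 kb and regions over 10 kb away. Regions that hold a start lay above the other 3 groups in all 12 libraries, and WT ESC replicate 1 lay lowest in each group.

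Upstream regions were marked less often than downstream ones, by 6.28 points on average, in 12 of 12 libraries (exact permutation test, p = 0.00049, adjusted 0.00114). Their medians were 55.7 and 60.9% in ESCs and 57.3 and 62.9% in EBs. The order turned around among regions that spanned a start: there the upstream ones were higher by 3.10 ± 3.37 points (SD, n = 12; positive in 10 of 12; exact p = 0.010, adjusted 0.0171). Among those not spanning, the difference was -2.55 ± 4.11 points (positive in 4 of 12; exact p = 0.057, adjusted 0.0714). The upstream group holds 92 spanning regions of 288 and the downstream group 253 of 491.

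The strength of Jarid2 binding went with H3K27me3, so the comparisons were repeated within 4 classes of the lower of the 2 scores, 12 tests added after the data were seen. In regions with both scores at 3100 or more, the 779 exceeded start-site regions by 12.1 points in 12 of 12 libraries (exact p = 0.00049, adjusted 0.00147). At 1000 to under 3100 the difference was 7.90 points, and under 300 it was 7.27 points, with the same count and p. At 300 to under 1000 it was 2.65 points, in 9 of 12 libraries (exact p = 0.064, adjusted 0.110).

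Within classes, the difference between upstream and downstream regions lay between -1.87 and 0.531 points, with exact p from 0.190 to 0.821. The effect of spanning was 16.8 points in the highest class, which compares 217 regions with 16 (exact p = 0.00049, adjusted 0.00147). In the class of 1000 to under 3100, the only one with similar numbers on both sides (87 and 91), it was -1.62 points, in 4 of 12 libraries (exact p = 0.395). In the lower classes it was 5.64 and 9.67 points, neither below 0.05 after adjustment (exact p = 0.037 and 0.034, both adjusted to 0.0742), the last over only 7 spanning regions. In all 4 classes the difference was smaller than the 30.2 points found over all regions.

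**Figure D4:**
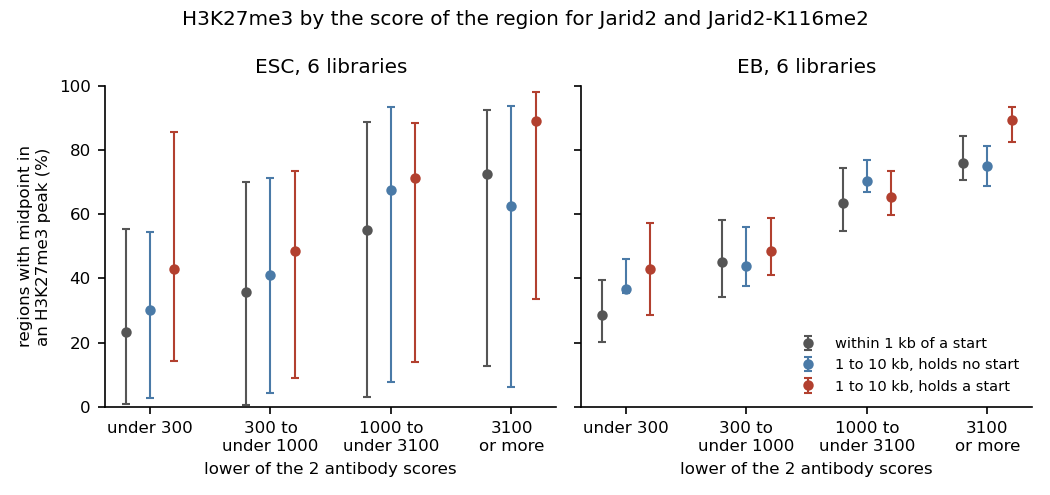
Share of regions marked by H3K27me3 (%), by class of the lower of the Jarid2 and Jarid2-K116me2 scores, in ESCs and EBs, for regions 1 to 10 kb away that hold a start or hold none and for regions within 1 kb (points, median; bars, range of 6 libraries). From under 300 to 3100 or more the EB median went from 42.9 to 89.4% for regions holding a start, from 36.6 to 75% for those holding none and from 28.5 to 75.9% for start-site regions.

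Some broad peaks covered both a region and its nearest start. Of the marked regions that spanned a start, the same H3K27me3 peak also covered the nearest start in a median of 65.3% in ESCs (20.2 to 81.0) and 74.1% in EBs. For those not spanning it was 47.6%. With the nearest start in no Jarid2 region, the start was marked in 13.5% of cases in EBs and the region in 45.5%. Where the start lay in another common region the start was marked in 63.5% and the region in a median of 50% of cases. Between the 2 kinds, the regions whose start was bound were marked more often by 8.46 ± 8.21 points (SD, n = 12; positive in 10 of 12; exact p = 0.0024, adjusted 0.0061). Those regions also had the higher Jarid2 scores, as given above, and this comparison was not repeated within classes of score.

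Among the gene lists, regions at homeobox genes were marked with a median of 77.2% in ESCs (28.3 to 90.2) and 82.1% in EBs (79.3 to 88.0). Counted by overlap of 1 bp or more in place of the midpoint, 52 of the 92 had a peak in all 12 libraries. By midpoint, 26 of them were marked in all 6 ESC libraries and 70 in all 6 EB libraries. For Sox, Fox, Gata and T-box factors the medians over 31 regions were 66.1 and 71.0%, and for ligands over 30 regions 65.0 and 71.7%. At signalling and guidance receptor genes the medians over 8 regions were 68.8% in ESCs and 50% in EBs. Ion channel and transmitter receptor genes had 71.1 and 76.3%, and by overlap of 1 bp or more 2 of 19 regions had a peak in all 12 libraries. The 4 regions at pluripotency genes had 12.5% in ESCs and 75% in EBs, but 3 of them were at Tbx3 and the other at Prdm14.

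Single regions show the range. The scores of H3K27me3 peaks, whose definition the lists do not give, are quoted per library with 0 for no listed peak. They are not scaled between libraries. At the Hoxc cluster (Hoxc9) they were 108 and 205 in KO ESCs, 78.9 and 180 in WT ESCs, 82.4 and 161 in K116A ESCs, 207 and 286 in KO EBs, 169 and 147 in WT EBs and 313 and 440 in K116A EBs. All 12 libraries had a peak there, and EBs and ESCs overlapped. At Nkx2-5 they were 58.0 and 109, 0 and 85.1, and 59.9 and 79.7 in ESCs of the KO, WT and K116A lines, and 97.0 and 125, 84.7 and 77.0, and 196 and 287 in EBs. The only library without a peak was WT ESC replicate 1. In the coding exon of Tchh, 3243 bp from the start, they were 77.9 and 151, 65.7 and 117, and 71.4 and 129 in ESCs, and 75.8 and 80.03, 98.7 and 85.3, and 147 and 191 in EBs, a peak in all 12 libraries.

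Not every strongly bound region was marked at both stages. Twist1, a mesenchymal helix-loop-helix factor, with both Jarid2 scores at 3100 in a region 7462 bp downstream, had peaks in 4 ESC libraries (scores 42.7 to 114) and in no EB library. Sim1, a hypothalamic factor, had peaks in 4 ESC libraries (37.3 to 83.5) and in no EB library. The Prdm14 region, at a germline and ESC factor, had a peak in both K116A EB replicates (39.1 and 47.1) and in none of the other 10 libraries. The Cbx8 region had a peak in all 12 libraries.

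Between stages, the share of the 779 that was marked did not differ beyond the spread of libraries. EBs exceeded ESCs by 6.78 points (exact permutation of stage within line, p = 0.602), and without WT ESC replicate 1 the difference was -2.55 points. The excess over start-site regions changed by -1.98 points from ESCs to EBs (exact p = 0.546). Averaged over stages, KO exceeded WT by 10.4 points (exact p = 0.50) and K116A exceeded WT by 12.1 points (exact p = 0.389), comparisons that cannot go below 0.0556 with these numbers. Without WT ESC replicate 1 they were -3.63 and -1.93 points. In EBs alone the 779 were marked in 60.2 ± 3.6% (SD, n = 2) in KO, 60.1 ± 1.1% in WT and 65.2 ± 5.3% in K116A. The excess over start-site regions in EBs was 6.70 ± 1.53 points in KO, 16.0 ± 1.7 in WT and 9.07 ± 2.15 in K116A, without a test of its own.

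A few regions switched between stages in every line. In this and the next patterns a peak was counted when it overlapped the region by 1 bp or more, not by the midpoint. A peak in all 6 EB libraries and no ESC library was found at 5 of the 779, against 0.411% of all common regions: Inhbb, Ntn1, Epas1, Mir183 and Ube2m. These genes, like those of the next patterns, were named after their values were seen, unless they met the rule for named regions. At Inhbb, which encodes an activin subunit, the EB scores were 132 and 191 in KO, 123 and 95.3 in WT and 172 and 208 in K116A. At Ntn1, the guidance cue netrin-1, they were 103 and 175, 48.3 and 53.7, and 99.3 and 144. Both regions span the start, and neither had a peak in ESCs.

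The opposite pattern, a peak in at least 5 of 6 ESC libraries and no EB library, was found at 7 regions, against 1.13% of all common regions: Wnt3, Ier5, Trib2, Cachd1, Dpysl5, Gm9530 and Gm10146. At Wnt3, a ligand of early mesoderm formation, ESC scores were 58.1 and 129 in KO, 0 and 79.4 in WT and 45.9 and 65.8 in K116A. In each of the 7, the ESC library without a peak was WT replicate 1. As shares of the 779, 5 is 0.642% and 7 is 0.899%, near the background on either side.

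By line, 50 regions had a peak in both KO ESC replicates and in neither KO EB replicate (6.42%; 5.34% of all common regions), 1 in WT (0.128%; 0.103%) and 39 in K116A (5.01%; 4.44%). The reverse held for 8 in KO (1.03%; 1.41%), 17 in WT (2.18%; 1.77%) and 19 in K116A (2.44%; 2.70%). The shares were close to those of all common regions. The count for WT ESCs is bounded by the few peaks of replicate 1.

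The EB lines could be compared without WT ESC replicate 1. A peak in both WT EB replicates and neither KO EB replicate was found at 33 regions (4.24% of the 779; 2.59% of all common regions), and the reverse at 19 (2.44%; 3.77%). For WT against K116A the counts were 12 (1.54%; 1.00%) and, in reverse, 31 (3.98%; 5.72%). For K116A against KO they were 56 (7.19%; 6.60%) and, in reverse, 19 (2.44%; 1.75%). KO EBs had the more peaks in all (10164 and 14125, against 6852 and 8446 in WT). Whether the calling of peaks bore on the missing ones was not tested. These are 2 replicates per line and no test was made of the counts.

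**Figure D5:**
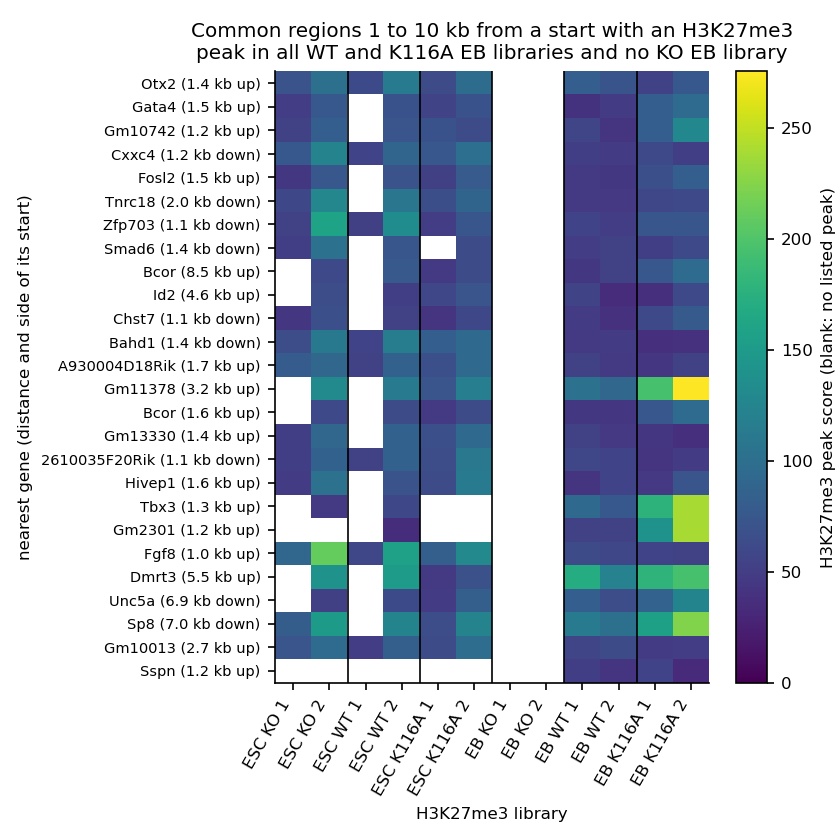
H3K27me3 peak scores in 12 libraries (columns) for the 26 members with a peak in all 4 WT and K116A EB libraries and in neither KO EB library (rows, ordered by the lower of the 2 Jarid2 scores). Blank cells have no listed peak, which is the case for both KO EB columns by the choice of rows.

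All 4 WT and K116A EB libraries and neither KO EB library had a peak at 26 regions (3.34%; 1.90% of all common regions), 14 of which span a start. At Otx2, a forebrain homeobox factor, the region of 11800 bp had scores of 82.1 and 71.7 in WT EBs and 52.7 and 75.6 in K116A EBs. In ESCs the same region had 70.4 and 101.2 in KO, 62.1 and 113 in WT and 62.8 and 96.9 in K116A. The mark was thus listed in both KO ESC libraries and in neither KO EB library. At Gata4, a heart and endoderm factor, WT EBs had 40.3 and 48.7, K116A EBs 82.3 and 96.1, and KO ESCs 50.5 and 76.1. At Tbx3, a T-box factor of ESCs and limb, WT EBs had 94.3 and 75.9 and K116A EBs 179 and 240, while KO ESCs had 0 and 46.3.

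The remaining genes of this pattern included regulators of transcription and signalling. Fgf8 (a growth factor, in the smaller region upstream of its start), Smad6 (an inhibitor of BMP signalling), Id2 (an inhibitor of helix-loop-helix factors), Cxxc4 (a Wnt inhibitor), Dmrt3, Sp8 and Fosl2 (transcription factors) and Bcor were among them. Bcor had 2 of its 5 regions here, with the same score in 5 of the libraries, so that these 2 are not independent. A930004D18Rik and Gm13330, and Tbx3 and Gm2301, are neighbouring pairs that likewise shared scores in some libraries and are not independent. Only the region at Sspn had no peak in any ESC library as well.

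Scores were compared with limma on log2 of the score plus 1, with libraries centred on the median of all common regions and 690 of the 779 among 3380 regions with a peak in at least 2 libraries. A region passed at a Benjamini-Hochberg-adjusted p under 0.05 over the 3380. From ESCs to EBs, 2 of the 690 rose in KO (0.29%; 0.237% of all tested) and 23 fell (3.33%; 3.37%). In WT 2 rose (0.29%; 0.0592%) and 13 fell (1.88%; 2.51%), and in K116A 5 rose (0.72%; 0.296%) and 10 fell (1.45%; 1.51%). The shares that fell were near those of all tested regions. The rises were few: both regions called in WT and 5 of the 10 called in K116A were among the 690.

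The centring bears on these counts. In WT ESC replicate 1 only 17.2% of common regions had a peak and its median was 0, so that centring left its unpeaked regions at 0 while it lowered those of the other 11 libraries by their medians, 5.39 to 6.24. The median change of all tested regions from ESCs to EBs in WT was -2.01 with centring and 0.590 without, and in KO 0.234 and 0.235. Without centring, 6 rose and 9 fell in KO, 6 rose and 0 fell in WT, and 9 rose and 2 fell in K116A. The 13 calls of lower H3K27me3 in WT therefore rest on the centring. Leaving out either WT ESC replicate raised the calls to 94 in KO and 217 in K116A.

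The 2 regions at Pou4f2, a POU homeobox factor of sensory neurons, rose in KO and in WT, and the distal one also in K116A. At the one 9220 bp downstream the scores were 51.7 and 66.8 in KO ESCs, 0 and 72.3 in WT ESCs and 45.6 and 53.3 in K116A ESCs, and 199 and 282, 163 and 135, and 171 and 232 in EBs. Every EB library was above every ESC library. The log2 change in KO was 1.99 (SE 0.28, limma, adjusted p = 0.00584). The other region, which spans the start, had the same EB scores, so that the 2 are not independent, and a KO change of 1.70 (SE 0.28, adjusted p = 0.0149). In K116A, Nr2f1, a nuclear receptor of the nervous system, rose from 62.2 and 77.4 to 198 and 301 (log2 change 1.51, SE 0.26, limma, adjusted p = 0.0359). These calls depended on the setting. With the replicate block 2 of the 690 rose in KO, 0 in WT and 1 in K116A, and the limma adjusted p was 0.0154 for the distal Pou4f2 region in KO, 0.0806 in WT and 0.0722 in K116A, and 0.0762 for Nr2f1 in K116A. In WT both Pou4f2 regions also missed the threshold with a pseudocount of 0.1 and with no filter, as did Nr2f1 in K116A. Without centring the adjusted p was 0.76 for that Pou4f2 region in KO and 0.758 for Nr2f1 in K116A. The call in K116A that held under the block was Gm2301, near Tbx3 (adjusted p by limma 2.41e-05, block 8.17e-05, without centring 0.0638).

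Among the falls in KO with the smallest p was Wnt3, with the values above (log2 change -6.45, SE 0.31, limma, adjusted p = 7.77e-06). The size of such a change depends on the 1 added to a score of 0 and is no measure of a fold. Cxcr4, a chemokine receptor, had scores of 49.6 and 83.1 in KO ESCs and 0 in both KO EBs (limma, adjusted p = 7.77e-06). Without centring the limma adjusted p was 0.166 for Wnt3 and for Cxcr4. In K116A EBs the Cxcr4 region had scores of 55.4 and 95.7.

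The change from ESCs to EBs was also compared between lines. It differed between KO and WT at 9 of the 690 (1.30%; 1.66% of all tested) and between K116A and WT at 8 (1.16%; 1.48%), by limma with Benjamini-Hochberg adjustment. Gata4, Fosl2 and Chst7 were lower in KO against WT (adjusted p = 0.000231 for each), and Ssbp2 was higher (adjusted p = 0.000327). Cxcr4, Mex3b and a Bcor region were higher in K116A against WT (adjusted p = 0.000514 for each). Speg and Zfp579 were lower. For Speg the scores were 48.4 and 83.4 in K116A ESCs, 0 in both K116A EBs, 0 and 84.9 in WT ESCs and 48.0 and 44.6 in WT EBs. None of the regions named for these contrasts had a peak in WT ESC replicate 1, so their WT ESC peak came from replicate 2 alone. Without centring, 0 and 0 of the 690 passed, with 24 and 14 at an unadjusted p under 0.05. With WT ESC replicate 1 left out and centring kept, 20 and 15 were called.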

How the data were processed

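Jarid2, Jarid2-K116me2 and H3K27me3 ChIP-seq peak lists were analysed, and the 2 input samples, which have no list here, were not used. Per the study's methods and processing notes, the authors aligned 100 bp reads to mm9 with Bowtie2 2.1.0 and called peaks with MACS 1.4.2 (Jarid2, FDR 0.15%) or MACS2 2.0.10 (H3K27me3, broad, FDR 5%), each sample apart. HOMER 3.17 is also named. The deposited values are a score per peak: -10 log10 p for Jarid2, not defined for H3K27me3. No fold enrichment was given, so the planned limma test used the score, taking the highest peak over each region and 0 without one.

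Starts were the 86932 of the GENCODE NCBIM37 annotation. limma 3.58.1 in R 4.3.3, and Python 3.11.15 with scipy 1.17.1, pandas 2.3.3, numpy 2.4.6 and matplotlib 3.10.9, were used, after tests on simulated data. Shares were compared over libraries with exact permutation tests. Named regions were: the 5 strongest not spanning on each side, the 5 widest spanning, the 2 nearest each bound on either side, up to 3 limma calls per contrast and direction, and the 2 strongest of each gene list. The regions, lists and tests were chosen with earlier results of these data known. Alternatives covered the definition of a marked region, peak thresholds, starts, distance band, pseudocount, filter, centring, replicate block and left-out libraries. Some regions that met this rule are not reported here.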

Additional observations from a re-analysis of the deposited data

Results flagged for a closer look

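The change in H3K27me3 score from ESCs to EBs differed between KO and WT at 9 of the 690 tested regions and between K116A and WT at 8, by the interaction term of the limma fit. Without centring of the libraries 0 and 0 passed, with 24 and 14 at an unadjusted p under 0.05. With the lowest listed score of each library in place of 0, counts were 0 and 1. In WT ESC replicate 1, on which both contrasts draw, 17.2% of common regions had a peak, against 50.7 to 86.1% in the other 11 libraries. Its part in these calls was not tested beyond these fits and those without it. Dixon's test over 16 groups of 6 libraries found no share of marked regions apart from its stage, that library included.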

How the results depend on the processing

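The differences in marked share between the 779 and start-site regions, between upstream and downstream and between spanning and not spanning kept their direction and stayed under the threshold of the exact permutation test (p = 0.05) in all alternatives that kept the full set of regions. Within score classes and within spanning regions, comparisons added after seeing the data, not all held: upstream minus downstream was -1.87 to 0.531 over the 4 score classes and 3.10 among spanning regions, spanning minus not spanning was -1.62 at scores of 1000 to under 3100, and the 779 minus start-site regions was 2.65 at 300 to under 1000 (exact p = 0.064). Over 8 settings they ranged from 5.01 to 16.3, from -10.6 to -3.74 and from 26.9 to 40.9 points, and without single libraries from 10.8 to 12.2, from -6.75 to -5.89 and from 28.98 to 31.0 points. The change of the excess over start-site regions between stages turned to 1.30 points with a band of 2 to 10 kb and ranged from -4.45 to 0.503 without single libraries, the highest without KO ESC replicate 1. Without WT ESC replicate 1 EB minus ESC was -2.55 (range over libraries left out -2.55 to 16.1), KO minus WT -3.63 (-3.63 to 24.4) and K116A minus WT -1.93 (-1.93 to 26.1), none called in any setting. A band of 2 to 10 kb left 401 regions. With 6 means over replicates as units, the exact sign-flip p was 0.03125 for each of the 3 differences named first.

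The limma counts depended on how regions without a peak were treated. Members called in KO, WT and K116A numbered 25, 15 and 15, without centring 15, 6 and 11, and with the lowest listed score in place of 0 (chosen after seeing the data) 325, 6 and 408. The interactions numbered 9 and 8, then 0 and 0, then 0 and 1. Without single libraries they ranged from 22 to 94, 14 to 279, 11 to 217, 9 to 243 and 9 to 244. The highest counts came without WT ESC replicate 2 (94, 279, 217, 243 and 244), where the lone WT ESC library is assumed to vary like the other groups. Without replicate 1 the KO and K116A counts were the same 94 and 217, and 20 and 15 interactions were called. Without KO ESC replicate 1 or 2 the counts were 56 or 54 (KO), 42 (WT), 45 (K116A), 21 or 65 and 32. Without K116A ESC replicate 2 K116A calls and its interactions were 27 each. Interactions were 14 without KO EB replicate 2, 16 and 13 or 15 and 16 without WT EB replicate 1 or 2, and 17 without K116A EB replicate 2. Replicate 2 had more peaks in all 6 groups, but by the labels and the check used, replicate numbers did not pair the samples (correlations of deviations over 15 pairs of groups -0.011 to 0.44, 2 over 0.1). With the replicate block limma called 23, 13, 11, 9 and 8, with rises down from 2 to 0 in WT and from 5 to 1 in K116A, and no call of the share tests changed (exact p from 0.125 to 0.625). The planned threshold on -log10 q was not run, since the lists give no q. The lists hold no read counts, so a region without a peak may be unmarked or below detection.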
